A study of Homo sapiens with 17 samples.

Results

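Of the matrix metalloproteinase (MMP) cluster at 11q22, 8 members are described here, namely MMP1, MMP3, MMP7, MMP8, MMP10, MMP12, MMP13 and MMP27. They encode secreted zinc proteases. MMP20, which lies between MMP7 and MMP27, is not among the 8. The members were chosen by name and position, not by a measured value, and make up 8 of the 62754 genes in each deposited table. They were measured by poly(A)-selected, strand-specific RNA-seq in IMR90 ER:RAS cells, which are human lung fibroblasts made by retroviral infection to carry a RAS oncogene fused to an oestrogen receptor domain. Addition of 4-hydroxytamoxifen (4OHT) switches the fusion protein on and drives these cells into oncogene-induced senescence. All 17 libraries came from cells that carried the transgene and had been transfected with an siRNA before treatment, and RNA was taken on day 7. The groups were DMSO with a non-targeting siRNA (DMSO siNT, n = 5), 4OHT with a non-targeting siRNA (4OHT siNT, n = 6) and 4OHT with an siRNA against SMARCA4 (4OHT siSMARCA4, n = 6). SMARCA4, also called BRG1, is a catalytic subunit of SWI/SNF, which moves nucleosomes. No library combined DMSO with siSMARCA4, so the knockdown was measured in senescent cells alone. Whether the cells were 1 clone, and whether libraries of a group came from separate cultures, is not given in the sources used here. If they did not, the p-values below measure technical spread.

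MMPs are made as inactive proenzymes, and cleavage of the propeptide frees the catalytic zinc. Members of this cluster between them cleave fibrillar collagen, proteoglycans, laminin, fibronectin and elastin, and several are classic components of the senescence-associated secretory phenotype (SASP) of fibroblasts. Their genes arose by duplication. Many have a TATA box and an AP-1 element close to the transcription start, and AP-1 is the factor through which growth factors and interleukin-1 are known to induce collagenase and stromelysin.

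On GRCh38 the members lay between 11:102520508 and 11:102955732, a span of 435 kb, all on the minus strand. Their order by rising coordinate was MMP7 (ENSG00000137673, 102520508-102530750), MMP27 (ENSG00000137675, 102691487-102705769), MMP8 (ENSG00000118113, 102711796-102727050), MMP10 (ENSG00000166670, 102770502-102780628), MMP1 (ENSG00000196611, 102789401-102798160), MMP3 (ENSG00000149968, 102835801-102843609), MMP12 (ENSG00000262406, 102862736-102874982) and MMP13 (ENSG00000137745, 102942995-102955732). MMP7 stood 161 kb from the next member, whereas MMP10 and MMP1 were 8.77 kb apart. MMP20, the enamel protease, lies in the gap between MMP7 and MMP27.

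Promoter sequences from RefSeq (GRCh38.p14) covered MMP7, MMP8, MMP10 and MMP27, and had no entry for MMP1, MMP3, MMP12 or MMP13. Each runs from 250 bases before the start to 50 after it. Those of 3 members are shown 5′ to 3′ on the minus strand, because MMP7 and MMP10 hold a match to the same degenerate AP-1 letters at the same place and MMP8 was the member that fell with the knockdown. Capitals mark matches on either strand to the AP-1 letters TGANTCA, the TATA letters TATAAA and the PEA3 (Ets-type) letters AGGAAG. The AP-1 form TGANTCA is its own reverse complement, so each match counts on both strands, and no 2 marked matches overlap.
MMP7 (11:102530698-102530997): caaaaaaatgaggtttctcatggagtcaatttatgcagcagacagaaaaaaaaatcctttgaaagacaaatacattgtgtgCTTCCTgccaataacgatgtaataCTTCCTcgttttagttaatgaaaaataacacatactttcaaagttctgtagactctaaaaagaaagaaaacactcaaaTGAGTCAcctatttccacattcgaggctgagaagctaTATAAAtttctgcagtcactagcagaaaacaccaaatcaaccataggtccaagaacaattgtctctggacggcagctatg
MMP10 (11:102780579-102780878): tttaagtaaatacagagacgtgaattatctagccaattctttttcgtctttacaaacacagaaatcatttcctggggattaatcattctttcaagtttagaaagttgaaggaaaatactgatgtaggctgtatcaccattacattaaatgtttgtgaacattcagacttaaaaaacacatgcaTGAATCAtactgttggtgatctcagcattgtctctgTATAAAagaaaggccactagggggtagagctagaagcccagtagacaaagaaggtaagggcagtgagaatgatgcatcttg
MMP8 (11:102724905-102725204): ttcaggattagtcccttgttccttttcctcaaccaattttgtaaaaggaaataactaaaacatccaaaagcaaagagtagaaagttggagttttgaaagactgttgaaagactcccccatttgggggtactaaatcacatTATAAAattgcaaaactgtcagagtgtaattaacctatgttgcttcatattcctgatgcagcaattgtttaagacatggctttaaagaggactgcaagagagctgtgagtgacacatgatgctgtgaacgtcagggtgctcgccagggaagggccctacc

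In MMP7 the AP-1 match, read TGAGTCA, covered bases -67 to -61 from the start. MMP10 had its match, read TGAATCA, at the same -67 to -61, but this one is lost if the middle base must be C or G. TATAAA began at -30 in MMP7 and at -31 in MMP10. In MMP8 it began at -110, and no AP-1 match was found in that window. The MMP8 window lies at a start inside the gene as GENCODE draws it, whose end is at 102727050, whereas those of MMP7 and MMP10 lie at the gene ends. MMP7 also held 2 PEA3 matches, starting at -169 and -145, and MMP27 held none of the 3 motifs. Among 35116 RefSeq promoters of the same length, 7.71% held TGANTCA, 11.5% TATAAA and 33.6% AGGAAG. These are matches of letters, and binding was not measured.

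Library totals ranged from 39109479 to 68978119 counts. Values are counts scaled to 1000000 per library (CPM) after scaling by TMM, a correction for library composition, and ± gives the SD over libraries where SE is not named. As a check of the labels, SMARCA4 stood at 268 ± 13.2 CPM in 4OHT siNT (n = 6) and 88.0 ± 22.8 CPM in 4OHT siSMARCA4 (n = 6), a log2 fold change of -1.61 with SE 0.13 (edgeR adjusted p 5.13e-07). All 9 fibroblast markers examined were above 1 CPM in every group, with a summed level of 22986 to 27668 CPM in DMSO siNT, 13468 to 17599 CPM in 4OHT siNT and 7583 to 10895 CPM in 4OHT siSMARCA4. Of the 9, 7 were called lower and 0 higher with 4OHT, where 27.4% of all genes were called lower. With the knockdown, 7 of the 9 were called lower and 0 higher, where 13.8% of all genes were called lower. None of 6 macrophage markers reached a group mean of 1 CPM, and their sum was at most 1.19 CPM in any library. The 5 neutrophil markers summed to at most 0.070 CPM, with FCGR3B and S100A12 at 0. The 3 endothelial markers summed to 0.798 to 1.83 CPM in DMSO siNT, 3.52 to 5.54 CPM in 4OHT siNT and 1.73 to 4.25 CPM in siSMARCA4. Both that could be tested were called higher with 4OHT, PECAM1 by 5.80 (SE 0.54, edgeR adjusted p 3.37e-08, from 4 counts in DMSO) and VWF by 1.76 (SE 0.26, edgeR adjusted p 1.24e-05), while CDH5 stood at 0 in DMSO and at most 0.118 CPM elsewhere. With the knockdown PECAM1 fell by 1.43 (SE 0.33, edgeR adjusted p 0.0046). Their part in the results below was not tested. In bulk RNA, a change in the number of expressing cells and a change in RNA per cell cannot be told apart. Each label also carries an siRNA number, 2 or 4, and a tag, V or VM, whose meaning is not given. All 6 of the 4OHT siNT libraries are VM, while 3 of 6 siSMARCA4 and 3 of 5 DMSO libraries are.

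Every member that could be tested rose when RAS was switched on. The first question was how the cluster responds to senescence in cells with the control siRNA. Of the 8 members, 6 had enough counts for the fit (all but MMP13 and MMP27), and all 6 were called higher in 4OHT siNT than in DMSO siNT at an adjusted p under 0.05. Over all 19473 genes tested, 54.4% were called, 27.0% as higher and 27.4% as lower. The median log2 fold change of the 6 was 5.27, against 0.0039 for all genes. No DMSO library reached the lowest 4OHT siNT library for any of the 6, a separation found in 19.6% of all genes in this direction. Members differed widely in size of change, from 2.51 for MMP8 to 8.10 for MMP10 on the log2 scale.

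**Figure D1:**
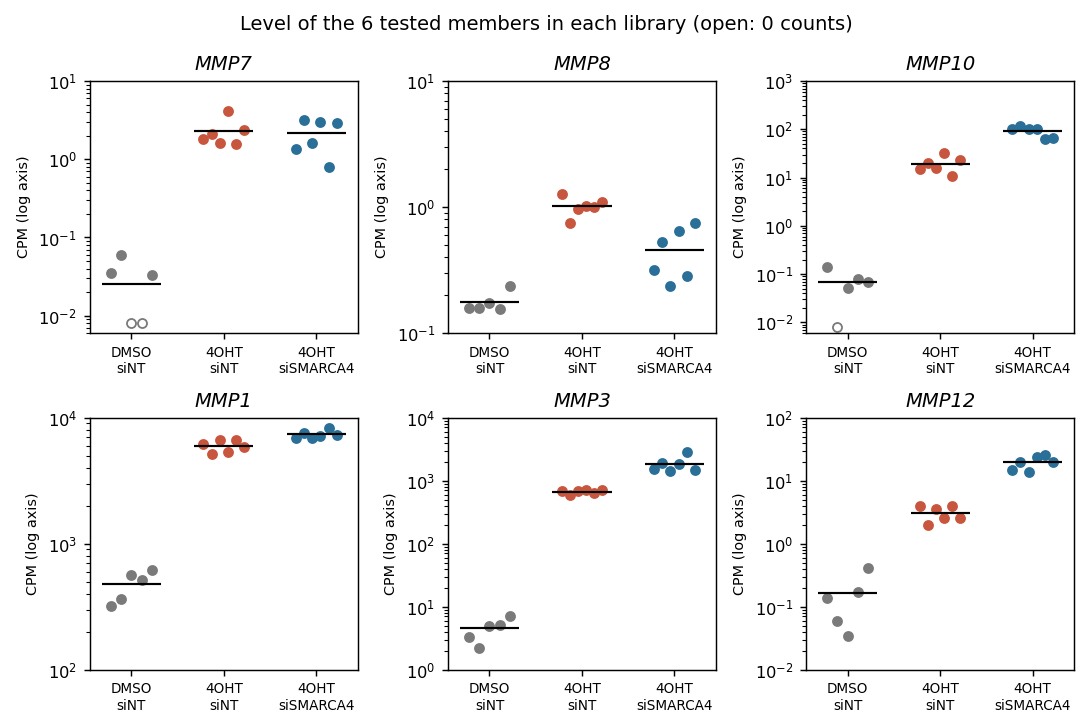
Level of the 6 tested members in each library, in CPM on a log axis. Points are libraries (5 DMSO siNT, 6 in each 4OHT group), black lines are group means and open points are libraries with 0 counts. All 4OHT siNT points lie above all DMSO siNT points in each panel, and MMP3, MMP10 and MMP12 rise again with siSMARCA4.

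The collagenases MMP1, MMP8 and MMP13 make the first cut in triple-helical collagen. MMP1, the interstitial collagenase of fibroblasts, stood at 318, 364, 562, 512 and 622 CPM in the 5 DMSO libraries. In 4OHT siNT it ranged from 5135 through a median of 6028 to 6655 CPM. The 2 lowest DMSO libraries were the 2 labelled V. The log2 fold change was 3.65 (SE 0.16, edgeR adjusted p 1.42e-12), from 475 ± 130 (n = 5) to 5962 ± 638 CPM (n = 6). MMP1 was between the 211th and 436th gene by counts in DMSO libraries and between the 4th and 13th in 4OHT siNT.

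MMP8, the collagenase best known from neutrophils, was low throughout. It was at 0.157, 0.159, 0.173, 0.155 and 0.235 CPM in DMSO, which is 8 to 14 counts a library. The 4OHT siNT libraries ran from 0.746 through 1.01 to 1.27 CPM, above all of these, and the log2 fold change was 2.51 (SE 0.30, edgeR adjusted p 7.99e-07). The neutrophil markers stood at or near 0 in the same libraries, as given above. MMP13, the collagenase of cartilage and bone, had 4 counts over the 5 DMSO libraries and 27 over the 6 of 4OHT siNT, with 1 to 10 counts in each of the latter. It was too low for the fit. An exact 2-sided permutation test of its log2 CPM gave p = 0.0130 (n = 5 and 6), 1 of 4 such tests run on the low members, with the libraries of both groups overlapping. With no filter on low counts the fit took it in, at 2.42 (SE 0.71, edgeR adjusted p 0.00991).

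The stromelysins MMP3 and MMP10 cleave proteoglycans and fibronectin and can activate the proenzyme of MMP1. MMP3 stood at 3.298, 2.19, 4.89, 5.21 and 7.16 CPM in DMSO and at 605 to 716 CPM (median 685) in 4OHT siNT. The DMSO libraries labelled V were the lowest here too, at 2.19 to 3.298 CPM against 4.89 to 7.16 CPM for VM. Its groups were far apart and the 4OHT siNT libraries lay close together (673 ± 43.2, n = 6), for a log2 fold change of 7.20 ± 0.29 (SE, adjusted p 4.89e-13 by edgeR). It moved from the 10208th to 12821st gene by counts to the 167th to 207th. MMP10 was near absent before RAS was switched on, with 8, 0, 3, 4 and 4 counts in the DMSO libraries. In 4OHT siNT it had 403 to 1746 counts, or 10.5 to 31.7 CPM with a median of 18. The log2 fold change of 8.10 ± 0.41 (SE, adjusted p 9.60e-12 by edgeR) was the largest of the members and rests on 19 DMSO counts. MMP3 and MMP10 are close relatives, and 59 of the 1757 stretches of 50 bases in MMP10 transcripts also occur in MMP3. No other pair of members shared one. Read pairs from those stretches could be divided between both genes by the counting.

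MMP7 (matrilysin) lacks the hemopexin domain and is best known from epithelium. It had 2, 3, 0, 0 and 2 counts in the DMSO libraries and 60 to 227 counts in 4OHT siNT, which is 1.57 to 4.12 CPM with a median of 1.98. The log2 fold change was 6.36 (SE 0.57, edgeR adjusted p 2.49e-08). The 5 epithelial markers summed to 30.95 to 47.3 CPM in DMSO and 1.14 to 2.64 CPM in 4OHT siNT, with KRT5 at 0. Only 1 of the 5 had a mean of 1 CPM or more in DMSO. Both that could be tested were called lower with 4OHT, and their part in the MMP7 result was not tested. MMP12, the metalloelastase known from macrophages, had 8, 3, 2, 9 and 25 counts in DMSO and 92 to 206 in 4OHT siNT (2.02 to 3.95 CPM, median 3.10). Its log2 fold change was 4.19 (SE 0.37, edgeR adjusted p 1.89e-08). The macrophage marker sums of the same libraries were 0.314 to 0.884 CPM in DMSO and 0.944 to 1.19 CPM in 4OHT siNT. Of the 2 macrophage markers that could be tested, 1 was called higher with 4OHT, and their part in the MMP12 result was not tested.

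MMP12 was the only member whose response to 4OHT differed between the siRNA numbers in an added test of that difference. Its log2 fold change was larger for number 2 than for number 4 by 2.59 (SE 0.52, edgeR adjusted p 0.0376), where 2.10% of all genes were called. With number 2, MMP12 went from 0.0347 to 0.140 CPM (3 libraries, 13 counts) to 3.61 to 3.95 CPM. With number 4 it went from 0.174 and 0.419 CPM (2 libraries, 34 counts) to 2.02 to 2.59 CPM. It rose in both, and the difference rests on 47 DMSO counts, 25 of them in library 4-3VM. The DMSO libraries labelled V, 2-1V and 2-2V, are both of number 2, so siRNA number and tag cannot be fully told apart here. MMP27, the last member, had 0 counts in all 11 libraries of these groups. A floor of 3 counts over the group then allows up to 0.0113 CPM in DMSO and 0.00968 CPM in 4OHT siNT, for counting error only, since reads were not marked by molecule.

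The second question was what SMARCA4 knockdown does to the cluster in senescent cells. MMP3, MMP10 and MMP12 rose further, MMP8 fell, and MMP1 and MMP7 did not pass the test. Of 19473 genes, 24.2% were called, 10.4% as higher and 13.8% as lower. The median log2 fold change of the 6 members was 0.88, against -0.024 for all genes. Libraries of both groups did not overlap for MMP1, MMP3, MMP10 and MMP12, all of them higher with the knockdown, and 4.54% of all genes were separated in this way.

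With both siRNA numbers pooled, MMP12 had the largest change among the members, and with number 2 alone MMP10 did, as given below. From 2.02 to 3.95 CPM in 4OHT siNT it rose to between 14.0 and 25.7 CPM (median 19.7), a log2 fold change of 2.66 ± 0.26 (SE, adjusted p 3.89e-06 by edgeR). The lowest siSMARCA4 library stood well above the highest siNT library. The summed macrophage markers were 0.483 to 0.936 CPM in these siSMARCA4 libraries and 0.944 to 1.19 CPM in 4OHT siNT. Of the 2 macrophage markers that could be tested, 0 were called in this comparison. Their part in the MMP12 result was not tested. MMP10 rose from 10.5 to 31.7 CPM to 63.4 to 115 CPM (median 99.2), by 2.23 ± 0.23 (log2, SE, adjusted p 6.36e-06 by edgeR).

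MMP3 went from 605 to 716 CPM to between 1443 and 2837 CPM (median 1684). The log2 fold change was 1.45 (SE 0.20, edgeR adjusted p 9.53e-05). Library 4-2VM was the high one at 2837 CPM, and the other 5 lay between 1443 and 1906 CPM. MMP1 stood at 6842 to 8313 CPM (median 7237), above the highest siNT library at 6655 CPM, yet its log2 fold change of 0.30 (SE 0.13) had an edgeR adjusted p of 0.107. The SD of its log2 CPM was 0.42 in DMSO, 0.16 in 4OHT siNT and 0.10 in 4OHT siSMARCA4, and all groups shared 1 estimate of spread in the fit. With only both 4OHT groups in the fit the adjusted p was 0.0160.

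MMP8 was the member that fell. It ran from 0.746 through 1.01 to 1.27 CPM in 4OHT siNT and from 0.235 through 0.420 to 0.753 CPM in siSMARCA4, so that 1 siSMARCA4 library reached the lowest siNT library. The log2 fold change was -1.13 (SE 0.25, edgeR adjusted p 0.00364). The 3 siSMARCA4 libraries labelled VM were at 0.235 to 0.315 CPM and the 3 labelled V at 0.525 to 0.753 CPM. SMARCA4 itself was split by this tag, at 68.4 to 78.2 CPM in the VM libraries and 82.6 to 126 CPM in the V libraries of siSMARCA4, and its part in this result and that of MMP7 was not tested. Within VM libraries, to which all 4OHT siNT libraries belong, the change was -1.85 (edgeR adjusted p 0.000147), over 1.5 times that of all libraries. In the libraries of siRNA number 4 alone the call was lost at -0.73 (edgeR adjusted p 0.245). Its siSMARCA4 libraries 4-2V and 4-3V carry the V tag, against 2-3V alone for number 2. The parts of siRNA number and tag therefore cannot be fully told apart.

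MMP7 had 1.57 to 4.12 CPM in 4OHT siNT and 0.784 to 3.17 CPM in siSMARCA4, and its log2 fold change was -0.08 (SE 0.34, edgeR adjusted p 0.892). Its siSMARCA4 libraries also fell into those labelled V, at 2.92 to 3.17 CPM, and those labelled VM, at 0.784 to 1.60 CPM. With V or VM as a term in the fit the change was -0.89 (edgeR adjusted p 0.0446), whereas VM libraries alone gave -0.85 (edgeR adjusted p 0.108) and leaving out the 4OHT siNT library 4-2VM gave 0.17. MMP1 passed the test in the fit with V or VM as a term, at 0.47 (edgeR adjusted p 0.0151), and in VM libraries alone, at 0.32 (edgeR adjusted p 0.0464). For MMP1, MMP3, MMP10 and MMP12 the V and VM libraries of siSMARCA4 overlapped. The share of all genes split by this tag in siSMARCA4 was not computed. The splits of MMP7, MMP8 and SMARCA4 are therefore description only. The part of the V and VM tag in these results was not tested further.

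MMP13 had 27 counts over 4OHT siNT and 20 over siSMARCA4 (exact 2-sided permutation p = 0.472, n = 6 each). MMP27 had 2 counts in all, 1 each in 2 siSMARCA4 libraries (exact p = 0.455), which is under the floor. Neither difference was detectable at this depth.

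**Figure D2:**
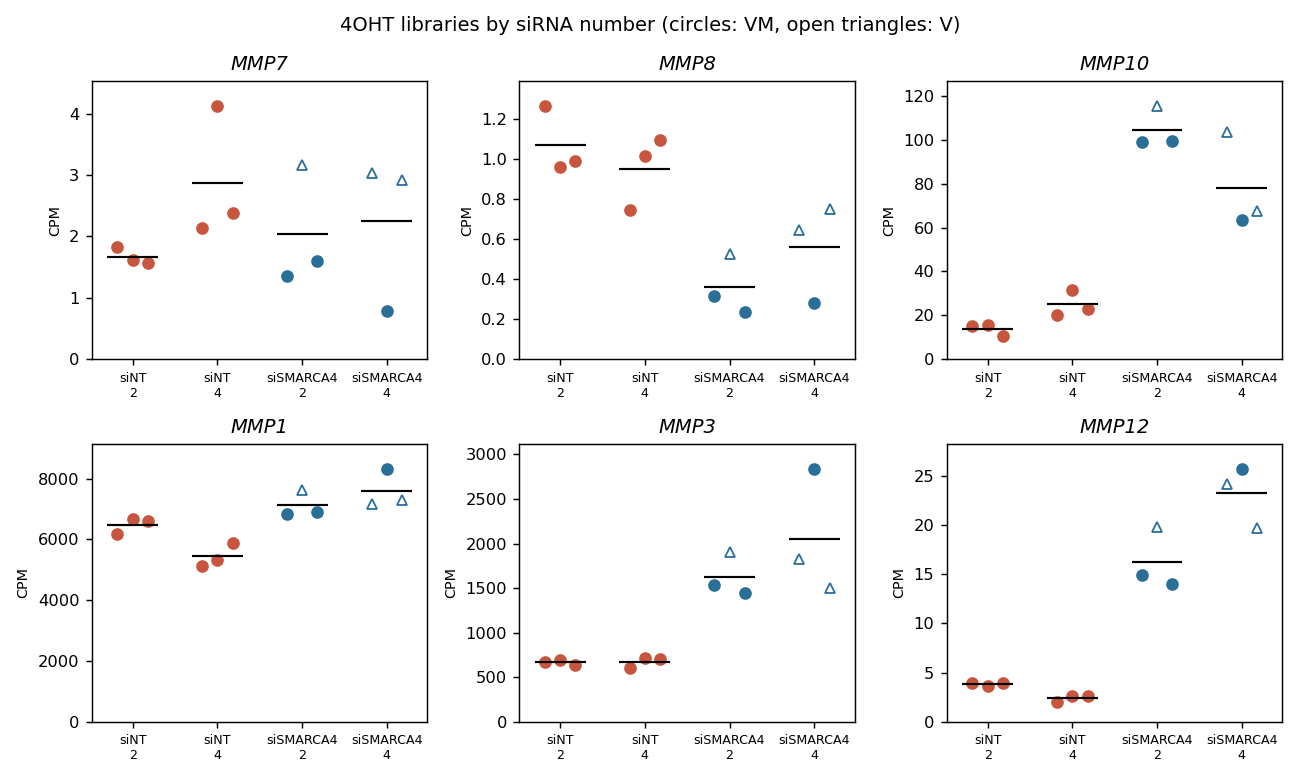
CPM of the 6 tested members in the 12 libraries with 4OHT, split by siRNA number, with VM libraries as filled circles and V libraries as open triangles. Black lines are means of 3 libraries. In siSMARCA4 the mean of MMP10 is higher with number 2 (105 against 78.1 CPM) and that of MMP12 with number 4 (23.2 against 16.2 CPM), with overlapping libraries in both, and open triangles sit above the circles in the siSMARCA4 columns of MMP7 and MMP8.

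The siRNA numbers were compared next, since the labels give the siSMARCA4 siRNA a number and 2 numbers were used. For each number, siSMARCA4 libraries were set against the 4OHT siNT libraries that carry the same number. The labels do not say that the numbers of siNT and siSMARCA4 correspond. A difference between numbers can therefore come from either side. SMARCA4 itself changed by -1.63 on the log2 scale (SE 0.18) with number 2 and by -1.58 (SE 0.18) with number 4, a difference of -0.05 (SE 0.25, edgeR adjusted p 0.951). None of the 6 members was called for a difference between the numbers, where 1.06% of all genes were. MMP10 and MMP12 had the lowest adjusted p of the members without being called, and they leaned opposite ways. MMP10 had log2 fold changes of 2.91 (SE 0.24) with number 2 and 1.65 (SE 0.23) with number 4. The difference of 1.27 (SE 0.32) had an edgeR adjusted p of 0.0700. For MMP12 the changes were 2.08 (SE 0.21) and 3.27 (SE 0.22), and the difference of -1.19 (SE 0.29) had an edgeR adjusted p of 0.0609.

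The control libraries take part in these differences, and the V tag is spread unevenly over the siRNA numbers in siSMARCA4, as given above. In 4OHT siNT, MMP10 was at 13.9 ± 2.88 CPM with number 2 and 24.96 ± 5.98 CPM with number 4 (n = 3 each). MMP12 was at 3.84 ± 0.195 and 2.40 ± 0.327 CPM in the same libraries. The libraries of both numbers did not overlap for either gene. Nor did they for MMP1, at 6189 to 6655 CPM with number 2 and 5135 to 5867 CPM with number 4. MMP7 was likewise apart, at 1.57 to 1.82 and 2.13 to 4.12 CPM, while MMP3 and MMP8 overlapped. The share of all genes so separated between the numbers was not computed. With n = 3 each, these separations are therefore description only. In siSMARCA4 the levels were 105 ± 9.31 and 78.1 ± 22.2 CPM for MMP10, and 16.2 ± 3.09 and 23.2 ± 3.10 CPM for MMP12, and the libraries of both numbers overlapped for either gene. MMP3 had changes of 1.28 (SE 0.24) and 1.60 (SE 0.24) and a difference of -0.32 (SE 0.33, edgeR adjusted p 0.678).

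Set against growing cells, all 6 members were higher in 4OHT siSMARCA4, with log2 fold changes from 1.38 (MMP8) to 10.33 (MMP10), where 55.1% of all genes were called and 26.5% were higher. This comparison differs in both treatment and siRNA and shares its libraries with the other comparisons. The siSMARCA4 libraries of 5 of the 6 tested members lay above all DMSO libraries, and 16.4% of all genes were so separated. MMP8 lost its call in VM libraries alone (0.54, SE 0.29, edgeR adjusted p 0.189) and with a replicate block on the whole tag (0.54, SE 0.36, edgeR adjusted p 0.311). MMP13, too low for the fit, was also separated, with 0.0386 CPM in its lowest siSMARCA4 library and 0.0347 CPM in its highest DMSO library, which are 2 counts each. MMP8 was the 1 tested member whose siSMARCA4 libraries overlapped those of DMSO, at 0.235 CPM in the highest DMSO library and the lowest siSMARCA4 library.

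Per kilobase of exon the order of levels in 4OHT siNT was MMP1 (2177 ± 233 CPM per kb), MMP3 (363 ± 23.3), MMP10 (11.03 ± 4.20), MMP12 (1.71 ± 0.452), MMP7 (0.980 ± 0.412), MMP8 (0.295 ± 0.0496) and MMP13 (0.0315 ± 0.0213), all n = 6, with MMP27 at 0 counts. MMP12 and MMP7 overlapped between libraries, and with the longest transcript as length both were at 1.71 to 1.72 CPM per kb. In siSMARCA4 the order of the first 6 was the same, with MMP3 at 994 ± 282, MMP10 at 51.9 ± 11.95 and MMP12 at 10.8 ± 2.59 CPM per kb. In DMSO only MMP1 (174 ± 47.5) and MMP3 (2.45 ± 1.03) were above 0.1 CPM per kb.

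MMP1 thus took nearly all counts of the cluster in growing cells and a smaller share in each 4OHT group. Its share of the summed counts of the 8 members was 98.7% to 99.3% in DMSO, 87.6% to 90.9% in 4OHT siNT and 73.96% to 82.1% in siSMARCA4. MMP3 held 0.598% to 1.14%, 8.82% to 11.8% and 16.9% to 25.2%. MMP10 reached 0.564% to 1.19% with the knockdown, from 0.145% to 0.521% in 4OHT siNT. The 8 members together took 0.0340% to 0.0629% of a library in DMSO, 0.556% to 0.720% in 4OHT siNT and 0.847% to 1.12% in siSMARCA4.

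**Figure D3:**
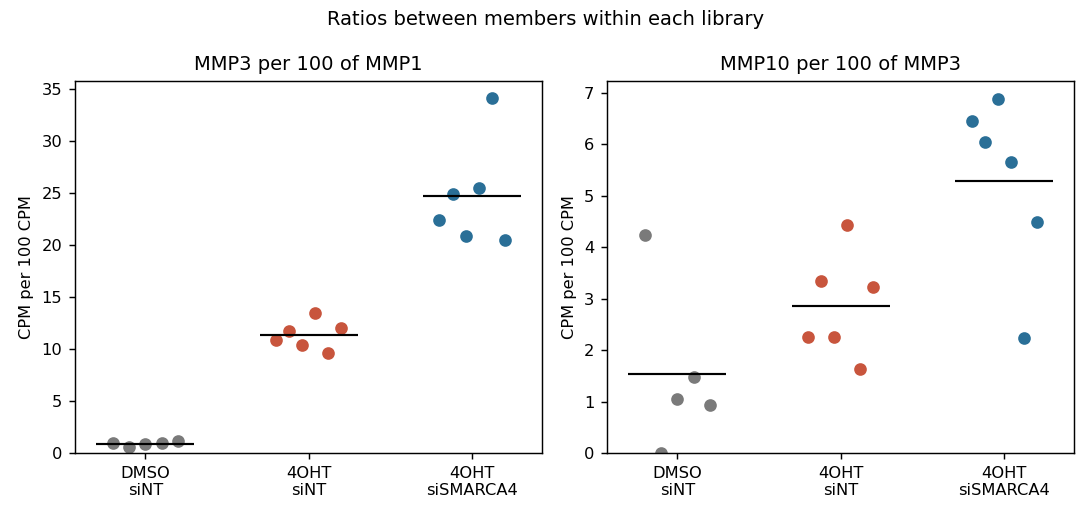
Ratios between members within a library, which do not depend on scaling between libraries. The left panel gives CPM of MMP3 per 100 CPM of MMP1 and the right panel MMP10 per 100 of MMP3, with a point per library and black lines at group means. MMP3 per 100 of MMP1 is 0.602 to 1.15 in DMSO siNT, 9.70 to 13.5 in 4OHT siNT and 20.5 to 34.1 in 4OHT siSMARCA4, without overlap.

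Ratios within a library also moved. MMP3 stood at 0.936 ± 0.212 per 100 of MMP1 in DMSO (n = 5), 11.4 ± 1.33 in 4OHT siNT (n = 6) and 24.8 ± 5.04 in siSMARCA4 (n = 6). MMP12 per 100 of MMP3 had another order, highest in DMSO at 3.37 ± 1.90, then 0.464 ± 0.125 in 4OHT siNT and 1.09 ± 0.184 in siSMARCA4. Both 4OHT groups were apart from each other, while the lowest DMSO library, at 0.709, lay below every siSMARCA4 library. MMP10 per 100 of MMP3 went from 2.87 ± 1.00 to 5.30 ± 1.71, and these libraries overlapped, with siSMARCA4 library 4-2VM at 2.23.

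The change along the chromosome was uneven outside the cluster as well. Of 17 other genes within 500 kb that had 10 or more counts, 12 could be tested. In 4OHT siNT against DMSO siNT, 3 were higher and 2 lower, with a median log2 fold change of 0.08, where 27.0% of all genes were higher and 27.4% lower. Of these 5, ENSG00000260966 lost its call under 15 of 29 alternatives, among them the loss of any 1 of the DMSO libraries 2-2V, 4-2VM and 4-3VM or the 4OHT siNT libraries 4-1VM, 2-2VM, 4-2VM and 2-3VM. DCUN1D5 lost its call under 3 of 30, with a change of 0.05 in siRNA number 4 alone. In siSMARCA4 against 4OHT siNT, 5 were higher and 0 lower, with a median of 0.21, where 10.4% of all genes were higher and 13.8% lower. Here DCUN1D5 lost its call under 10 of 30 alternatives, 8 of them the loss of 1 library (DMSO 4-2VM, 4OHT siNT 2-1VM, 4-1VM and 4-2VM, siSMARCA4 2-1VM, 2-3V, 2-3VM and 4-2VM), and ENSG00000288833 under 3 of 29. BIRC3, an inhibitor of apoptosis induced by NF-kB, rose in both, from 5.07 ± 1.11 (n = 5) to 17.2 ± 2.26 (n = 6) and 61.4 ± 6.33 CPM (n = 6), by 1.76 (SE 0.13, edgeR adjusted p 2.01e-09) and 1.84 (SE 0.12, edgeR adjusted p 5.50e-08). Its relative BIRC2 rose with the knockdown alone among the 2 tests (0.66, SE 0.12, edgeR adjusted p 0.000998). TMEM123, the nearest tested gene beyond MMP7, fell with 4OHT (-0.85, SE 0.10, edgeR adjusted p 1.13e-06) and rose with the knockdown (0.41, SE 0.10, edgeR adjusted p 0.00635), a call lost with a replicate block on the whole tag (0.33, edgeR adjusted p 0.0774). YAP1 was at 182 ± 15.7, 177 ± 9.31 and 200 ± 14.5 CPM in the 3 groups and was not called in either comparison. MMP20, inside the cluster's span, had 0, 14 and 11 counts in DMSO siNT, 4OHT siNT and siSMARCA4.

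**Figure D4:**
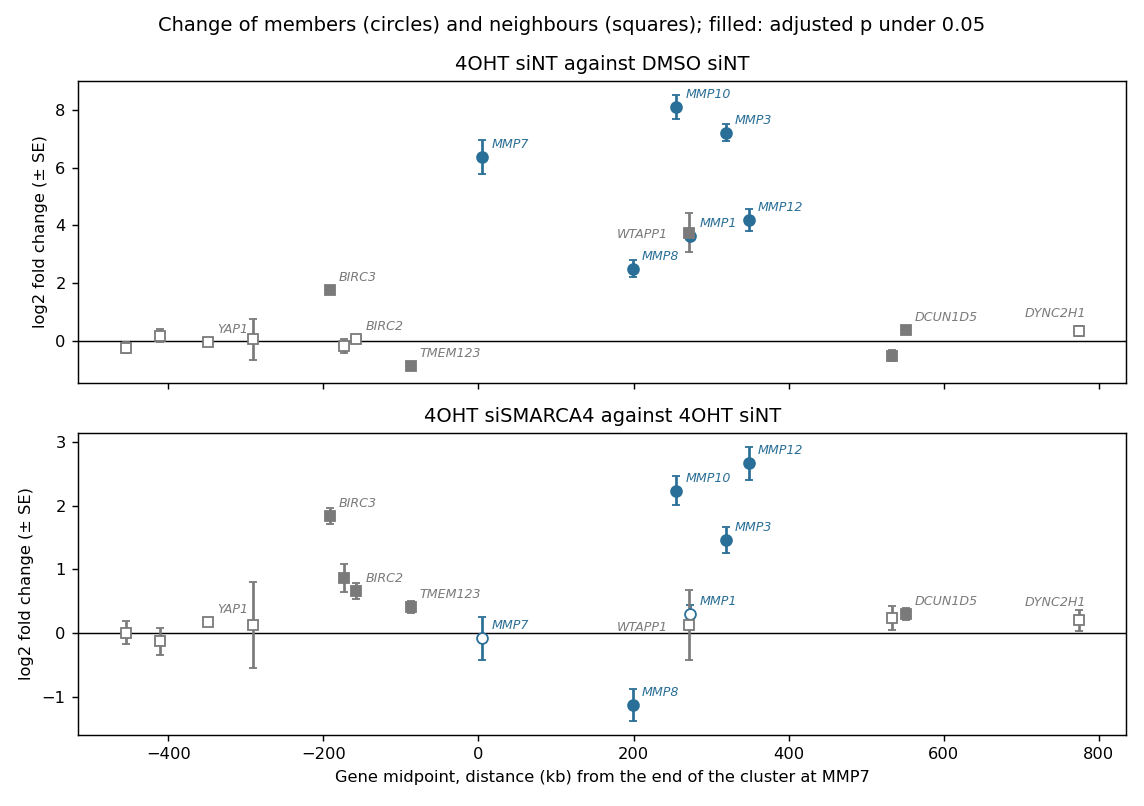
log2 fold change (± SE) of the 6 tested members (circles) and 12 tested neighbours (squares) by distance in kb from the end of the cluster at MMP7, for 4OHT siNT against DMSO siNT (top) and 4OHT siSMARCA4 against 4OHT siNT (bottom). Filled symbols have an adjusted p under 0.05. All 6 members are filled at the top, from 2.51 to 8.10, and at the bottom MMP3, MMP10 and MMP12 lie above 1 with MMP8 below 0.

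One neighbour overlaps the members themselves. WTAPP1 (ENSG00000255282, 11:102746968-102836766) is a transcribed pseudogene on the plus strand that runs across MMP10 and MMP1 and reaches into MMP3, opposite to all of them. It was called higher with 4OHT (3.75, SE 0.68, edgeR adjusted p 0.000115), although its libraries overlapped, at 0.939 to 11.3 CPM in DMSO and 9.75 to 117 CPM in 4OHT siNT. Its counts were 0.146% to 2.28% of the MMP1 counts of the same library. To set this beside antisense counts elsewhere, a measure chosen after the values were seen, counts of 366 weakly counted genes were summed that overlap exons of 307 strongly counted genes on the other strand. They made up 0.535% to 2.02% of the counts of their partners. The 3 libraries with the lowest antisense share, at 0.535%, 0.558% and 0.622%, were also the 3 with the lowest WTAPP1 share of MMP1, at 0.146%, 0.203% and 0.151%. The 3 with the highest, at 1.90%, 1.92% and 2.02%, had WTAPP1 at 2.01%, 2.28% and 2.12%. Its level is therefore uncertain.

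**Figure D5:**
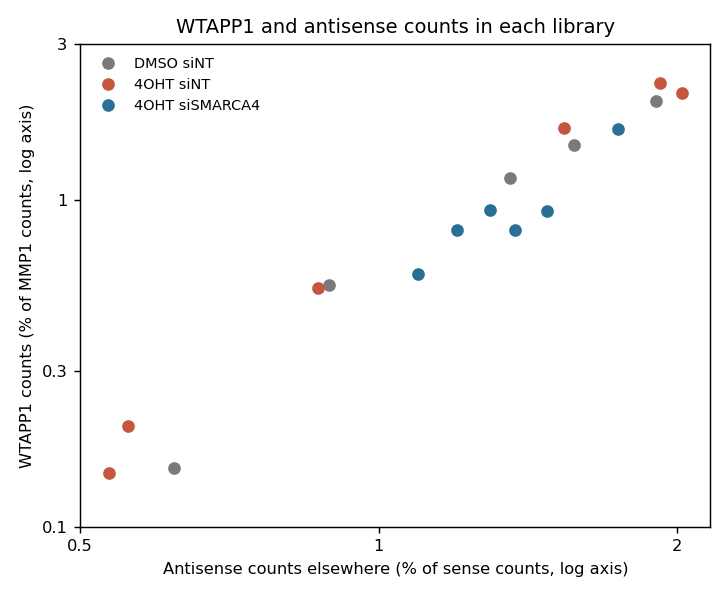
WTAPP1 counts as a percent of MMP1 counts (log axis) against antisense counts at other genes as a percent of the counts of their sense partners (log axis), with a point per library coloured by group. The points run from 0.535% and 0.146% at the lower left to 2.02% and 2.12% at the upper right, and the 3 groups lie along 1 band.

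The tables also count repeats, which the choice of members did not use. Within the span and 20 kb to either side, 794 repeat loci were listed and 153 had counts. They summed to 214 counts in DMSO siNT, 3235 in 4OHT siNT and 4788 in siSMARCA4. An AluSz element at 11:102793112-102793418, which overlaps an exon in the MMP1 and WTAPP1 gene bodies, held 162, 1730 and 2812 of these. It was at 0.582 ± 0.171 (n = 5), 5.81 ± 1.33 (n = 6) and 8.62 ± 1.29 CPM (n = 6). The 412 loci outside genes held 20, 35 and 55 counts.

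Proteins that restrain and activate MMPs were described from lists of known members. The counts of each list stand beside the shares of all genes given above, 27.0% higher and 27.4% lower with 4OHT and 10.4% higher and 13.8% lower with the knockdown. Of 7 inhibitors, 2 were called higher and 4 lower in 4OHT siNT against DMSO siNT. TIMP1, the inducible tissue inhibitor, rose by 2.24 (SE 0.24, edgeR adjusted p 1.98e-07) to 4891 ± 1048 CPM (n = 6), and TFPI2, a serine protease inhibitor, rose by 3.81 (SE 0.20, edgeR adjusted p 1.43e-11). RECK, a membrane-anchored MMP inhibitor, fell by 2.03 (SE 0.12, edgeR adjusted p 8.12e-11), and TIMP4 fell by 1.41 (SE 0.27, edgeR adjusted p 0.000172). With the knockdown, 0 were higher and 5 lower, led by the protease trap A2M at -2.28 (SE 0.36, edgeR adjusted p 0.000277) and TIMP4 at -1.16 (SE 0.28, edgeR adjusted p 0.0059). A2M and TIMP4 then stood at 0.784 and 0.287 CPM. TIMP2 fell by 0.62 with 4OHT (SE 0.07, edgeR adjusted p 9.30e-07) and by 0.34 with the knockdown (SE 0.07, edgeR adjusted p 0.00201), to 684 CPM. TIMP3 fell by 0.84 (SE 0.14, edgeR adjusted p 3.35e-05) and 0.70 (SE 0.13, edgeR adjusted p 0.00100), to 85.4 CPM. TIMP1 was not called with the knockdown (-0.31, SE 0.21, edgeR adjusted p 0.311), and its libraries overlapped.

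Of 8 listed genes of proenzyme activation, 4 could be tested, and all 4 rose with 4OHT. Among them were the plasminogen activators PLAT at 2.97 (SE 0.19, edgeR adjusted p 2.05e-10) and PLAU at 2.25 (SE 0.08, edgeR adjusted p 1.10e-13). PLG, which encodes plasminogen, had 7 counts over all 17 libraries and could not be tested. None of the 4 was called higher with the knockdown and 2 fell, PLAT by 0.81 (SE 0.16, edgeR adjusted p 0.00178) and FURIN, a proprotein convertase, by 0.35 (SE 0.08, edgeR adjusted p 0.00502). FURIN lost its call in the libraries of either siRNA number alone. Of 12 tested MMPs encoded elsewhere, 3 rose with 4OHT and 3 fell, and with the knockdown 0 rose and 1 fell. MMP14, the membrane-type collagenase, rose from 790 ± 159 (n = 5) to 2580 ± 273 CPM (n = 6) with 4OHT (1.71, SE 0.13, edgeR adjusted p 4.06e-09), and MMP9, a gelatinase, from a group mean of 0.0153 to 0.789 CPM (5.55, SE 0.87, edgeR adjusted p 2.60e-05), where the DMSO mean rests on 4 counts in 2 libraries. MMP23B fell with 4OHT by 2.04 (SE 0.37, edgeR adjusted p 0.000101) and MMP19 by 1.35 (SE 0.13, edgeR adjusted p 7.73e-08). MMP16 was the one that fell with the knockdown (-0.70, SE 0.17, edgeR adjusted p 0.00594).

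Of 17 AP-1 and partner factors, 10 rose and 2 fell with 4OHT, and 2 rose and 1 fell with the knockdown. ETV4, a PEA3-type Ets factor, rose with 4OHT (1.71, SE 0.12, edgeR adjusted p 5.10e-10) and fell with the knockdown (-0.67, SE 0.11, edgeR adjusted p 0.000233). CEBPB rose with 4OHT by 1.24 (SE 0.11, edgeR adjusted p 2.44e-08). ETS2 rose with the knockdown by 0.61 (SE 0.10, edgeR adjusted p 0.000458), and JUND, an AP-1 subunit, by 0.28 (SE 0.10, edgeR adjusted p 0.0397). JUND lost that call under 11 of 30 alternatives, among them siRNA number 4 alone (0.16, edgeR adjusted p 0.531) and the loss of any 1 of the 4OHT siNT libraries other than 4-2VM or the siSMARCA4 libraries 2-1VM, 2-3V, 2-3VM and 4-2VM. FOSL1 and FOSL2, which encode AP-1 subunits, fell with 4OHT by 0.75 and 1.26. Other AP-1 subunits rose, JUNB by 1.14 (SE 0.18, edgeR adjusted p 2.03e-05) and JUN by 0.92 (SE 0.15, edgeR adjusted p 4.82e-05). FOSB rose by 0.78 (SE 0.23, edgeR adjusted p 0.00889) and JUND by 0.25 (SE 0.10, edgeR adjusted p 0.0409), with overlapping libraries. FOS was not called (-0.54, SE 0.23, edgeR adjusted p 0.0579). Of 4 tested inducers, 3 rose with 4OHT, led by IL1B (0.776 ± 0.376 to 887 ± 204 CPM, n = 5 and 6) and IL1A (0.106 ± 0.0648 to 57.5 ± 10.2 CPM). With the knockdown 1 rose, IL1A (0.55, SE 0.18, edgeR adjusted p 0.0366), and 1 fell, TGFB1 (-0.36, SE 0.12, edgeR adjusted p 0.0293). IL1A lost that call under 13 of 30 alternatives, among them VM libraries alone (0.11, edgeR adjusted p 0.610) and the loss of any 1 of the 4OHT siNT libraries 2-1VM, 4-1VM, 2-2VM and 2-3VM or the siSMARCA4 libraries 2-3V, 4-2V and 4-3V. TGFB1 lost its call under 9 of 30, among them siRNA number 2 alone (-0.22, edgeR adjusted p 0.260) and the loss of any 1 of the 4OHT siNT libraries 4-1VM, 4-2VM and 4-3VM or the siSMARCA4 libraries 2-1VM, 2-3VM and 4-2VM.

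Among 8 substrates, 2 rose and 4 fell with 4OHT, and 0 rose and 4 fell with the knockdown. ELN, which encodes elastin, the substrate MMP12 is named for, had the largest change with 4OHT, from 9.06 ± 9.54 (n = 5) to 0.101 ± 0.0566 CPM (n = 6), a log2 change of -6.47 (SE 0.68, edgeR adjusted p 1.78e-07). COL1A2 fell with 4OHT by 1.68 (SE 0.16, edgeR adjusted p 7.60e-08), and COL4A1 and COL4A2, which encode basement membrane collagen, rose by 0.88 (SE 0.17, edgeR adjusted p 0.000218) and 0.62 (SE 0.17, edgeR adjusted p 0.00408). COL1A2 and COL1A1, which encode the chains of type I collagen cut by MMP1, fell with the knockdown by 1.49 (SE 0.16, edgeR adjusted p 9.93e-06) and 1.46 (SE 0.18, edgeR adjusted p 2.84e-05). In the libraries of siRNA number 4 alone, PLAT, ETS2, MMP16 and TIMP4 lost their calls.

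Genes whose log2 CPM followed a member most closely over the 17 libraries were named by rank, as a description in which the step between DMSO and 4OHT dominates. For MMP1 they were STC1, ENSG00000289724 and GDF15, all at r = 0.99, of which STC1 and GDF15 encode secreted factors. MMP3 was followed by PDE7B-AS1, MT1X and CSF2, all at r = 0.99, and MMP10 by PTGS2, IRAK2 and BPGM, also at 0.99. PTGS2, the inducible cyclooxygenase, stood at 1.75, 198.5 and 606 CPM in the 3 groups, beside 0.0672, 19.4 and 91.4 CPM for MMP10. CXCL6 and QPCT (0.99 both) were among the nearest to MMP7, LCE3D and CSRNP1 (0.97 both) to MMP8, and ARMC10 and LYPLA1 (0.98 both) to MMP12. CSRNP1 had the order of MMP8, at 30.4, 82.3 and 52.7 CPM.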

How the data were processed

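IMR90 ER:RAS RNA was sequenced from poly(A)-selected, reverse-stranded libraries. Each library has 1 table of expected counts deposited by the authors, as whole numbers, for genes and repeat loci. Per the submitters' processing notes and the methods, the authors trimmed reads with cutadapt 4.7, aligned them to GRCh38 with HISAT2 2.2.1, keeping up to 100 alignments, and counted with TElocal in multi-mapping mode, which divides a read pair among its positions. This can move counts between related genes. The methods name Ensembl release 100 for genes, yet all 62700 gene identifiers of GENCODE 44, used here for positions and exon lengths, occur in the tables.

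Expected counts were already whole and were not rounded further. Genes and summed repeat subfamilies were filtered with filterByExpr (minimum count 10, minimum total 15), scaled by TMM (factors 0.949 to 1.08) and fitted with edgeR 4.0.16 (R 4.3.3) by quasi-likelihood with 1 term per group over all 17 libraries. Benjamini-Hochberg adjustment ran over 19473 genes, and a call is an adjusted p under 0.05. SE was taken from the log2 fold change and the F statistic. log2 CPM used a prior count of 2. Low members were compared by exact permutation. DESeq2 1.42.0, the tool of the study's methods, was an alternative, beside other scalings, filters, terms and left-out libraries. The fit was tested on simulated data. Symbols of all 89 listed genes were matched.

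The members were chosen by name and position, but with earlier results of these data known, as were the gene lists and tests. Named were the members, genes within 500 kb with 10 or more counts, SMARCA4, in each list and comparison up to 4 called genes (the largest rises and falls), and for each member at 1 CPM or more in a group the 3 genes with the highest Pearson r. The endothelial markers, the TIMP1 value with the knockdown and the choice of similar genes described were added after values were seen. So were TIMP2, TIMP3, PLG, the calls of the fibroblast markers and the values of FOS, FOSB, JUN, JUNB and JUND with 4OHT. Other steps ran in Python 3.11.15 (pandas 2.3.3, numpy 2.4.6, scipy 1.17.1, matplotlib 3.10.9).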

Additional observations from a re-analysis of the deposited data

Results flagged for a closer look

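Single libraries stood apart from the rest of their group by Dixon's test at its 95% level in 4 of 24 gene and group combinations, where chance gives about 1 in 20. MMP3 was at 2837 CPM in 4OHT siSMARCA4 library 4-2VM, with the next library at 1906 CPM. MMP7 was at 4.12 CPM in 4OHT siNT library 4-2VM, with the next at 2.38 CPM. MMP8 was at 0.235 CPM in DMSO siNT library 4-3VM, where the next was at 0.173 CPM, a difference of 14 against 10 counts. WTAPP1 was at 120.6 CPM in 4OHT siSMARCA4 library 4-3V, with the next at 70.7 CPM.

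The change of MMP12 with 4OHT differed between siRNA numbers, by 2.59 on the log2 scale (number 2 minus number 4, edgeR adjusted p 0.0376). It was the 1 of 6 members called in this test, which was added after the data were seen.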

How the results depend on the processing

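Each result was recomputed under up to 30 alternatives. In 4OHT siNT against DMSO siNT the 6 members tested stayed called and higher under every alternative, or, where 1 CPM in 5 libraries was required and MMP8 left the test, 5 of 5. With no filter on low counts MMP13 and MMP27 entered the fit. MMP13 was called higher in 4OHT siNT (2.42) and in siSMARCA4 (1.95, edgeR adjusted p 0.0483) than in DMSO siNT, and MMP27 was not called. The smallest change of MMP12 was 2.93, with siRNA number 4 alone, and its largest 5.53, with number 2 alone. In siSMARCA4 against 4OHT siNT, MMP3, MMP10 and MMP12 stayed called under all 30. MMP8 lost its call with siRNA number 4 alone, and MMP1 and MMP7 gained one under the fits named above. MMP7 changed sign with siRNA number 2 alone (0.33) and ranged from -0.23 to 0.17 when single libraries were left out. The cause was not tested.

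Genes called in that comparison numbered 4703, 1198 with siRNA number 4 alone and 4478 with number 2 alone, both with 3 libraries in each 4OHT group. The cause was not tested. The labels also hold a replicate number, 1, 2 or 3, which was not taken to pair libraries. The whole tag is the siRNA number, the replicate number and V or VM together. Over 11071 genes the correlation of deviations was -0.28 to 0.30 (median 0.03, 7 pairs) for libraries of different groups with the same whole tag. It was -0.36 to 0.45 (median 0.14, 25 pairs) for those with the same replicate number but another whole tag. For different replicate numbers it was -0.53 to 0.53 (median -0.0056, 64 pairs). Best matches had the same replicate number in 5 of 17 libraries. With a replicate block on the whole tag, 3043 genes were called, and 6330 against 10726 for siSMARCA4 against DMSO siNT, where that block and VM libraries alone each ended the call of MMP8 and left 5 of 6 members called. With either replicate block, 4 of 6 members were called in siSMARCA4 against 4OHT siNT, as without it. Depth limits MMP13 and MMP27, and the DMSO levels of MMP7, MMP10 and MMP12, which rest on 7, 19 and 47 counts. MMP1 and MMP7 levels per kilobase moved with the longest transcript as length, to 3025 and 1.72 CPM per kb in 4OHT siNT.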
